A study of Drosophila melanogaster with 6 samples.

Results

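The 9 genes described here make up the core of the Drosophila JAK/STAT pathway. They comprise the ligand genes upd1, upd2 and upd3, the receptor gene dome, the short receptor gene et, the kinase gene hop, the transcription factor gene Stat92E and the inhibitor genes Socs36E and Ptp61F. They were chosen by name for their place in the pathway, and all 9 were found among the 17490 genes of the expression table. Levels were measured by mRNA sequencing in 3 libraries of GFP+ myoblasts sorted from leg imaginal discs at 0 h after pupae formation (APF) and in 3 libraries of input, that is, of all the cells of the disc. All 6 libraries came from animals of the genotype R32D05-lexA>lexAopGFP, in which a string enhancer fragment drives GFP in the adult muscle precursors of the disc through lexA. Discs were dissociated with collagenase and papain, and libraries were primed with oligo(dT). The input still held the myoblasts, so a difference between the groups is a difference between the myoblasts and a mixture that contains them. The labels do not say whether replicates came from separate animals or dissections, and p-values then measure only the spread between these libraries, which may be technical. In bulk RNA, fewer cells of a type and less RNA per cell cannot be told apart.

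In Drosophila, the secreted Upd ligands bind the receptor Domeless, the product of dome, which brings the Janus kinase Hopscotch, the product of hop, into its active form. Phosphorylated Stat92E then enters the nucleus and activates targets, among them Socs36E, whose product dampens the same pathway, while the phosphatase Ptp61F and the short receptor Eye transformer, the product of et, act as further brakes. In imaginal discs the pathway is known for its part in growth, patterning and regeneration.

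The libraries held from 45603727 to 77704082 reads on genes with a known exon length, as recovered from the deposited RPKM (reads per kilobase of exon, scaled to the size of the library). The RPKM values had already been brought to a common scale, since the median-of-ratios factor was the same in all 6 libraries. The 5 myoblast markers twi, htl, Mef2, Him and zfh1 passed the test as higher in the sorted cells, with a summed level of 432 to 529 RPKM against 68.1 to 92.5 RPKM in the input. Of 7 markers of disc epithelium, 4 (grh, crb, sdt and Fas3) were called lower in the sorted cells, and 3 (shg, baz and cora) were not called. The sum over the 7 was 92.4 to 116 RPKM against 146 to 267 RPKM, and in myoblasts shg and cora made up most of it. The mean of shg was higher in myoblasts (63.4 RPKM) than in the input (42.45 RPKM). By contrast, grh was at 0.615 against 38.3 RPKM and Fas3 at 2.39 against 56.7 RPKM. The 4 tendon markers summed to between 1.35 and 1.45 RPKM in myoblasts and between 65.5 and 76.1 RPKM in the input. Input replicate 1 stood apart from the other libraries, with 62.9% of its summed RPKM in its top 100 genes and low values for most long genes, as described with the genes it touches. No library was identical to another.

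The ligand genes were at the low end of the range, and for upd1 and upd2 the groups did not overlap. upd1, a ligand gene of the Unpaired family, was listed at 0 in all 3 myoblast libraries and at 0.718, 1.78 and 1.16 RPKM in input replicates 1 to 3 (1.22 ± 0.533 RPKM, SD, n = 3). The input values corresponded to 93, 336 and 246 reads. At the mean input level, 321, 321 and 247 reads would have been found in myoblast replicates 1 to 3. How often an expressed gene was missed was read from a different prediction, made for each myoblast library from the other myoblast libraries. Of the genes with 200 to 500 reads predicted in that way, 0 of 460, 0 of 428 and 2 of 491 were listed at 0 in myoblast replicates 1 to 3, and a count of 0 allows a share of up to 0.652% and 0.701% in replicates 1 and 2. These shares describe genes that the other myoblast libraries detected, which upd1 is not. These limits cover counting error only, since copies of the same molecule made by PCR could not be told from separate molecules. Of the 11192 genes above 0 in any library, 2.20% were like upd1 at 0 in all 3 myoblast libraries and above 0 in all 3 inputs.

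upd2, the second ligand gene, was at 0, 0.156 and 0.273 RPKM in myoblasts and at 0.9746, 0.393 and 0.507 RPKM in the input. The groups did not overlap, although the lowest input library was only slightly above the highest myoblast library. The myoblast values rested on 0, 26 and 35 reads and the input values on 80, 47 and 68 reads. In myoblast replicate 1, where upd2 was at 0, 104 reads would have been found at the mean input level and 35.7 reads at the mean level of the other myoblast libraries. Of the genes for which the other myoblast libraries predicted 20 to 50 reads there, 40.8% were listed at 0, against 3.9% of those with 100 to 200 reads predicted. Groups with the myoblasts lower and no overlap were found for 18.2% of the genes above 0 in any library.

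upd3, the ligand gene known for its induction in hemocytes and damaged tissue, was at 0 in all 3 myoblast libraries and at 1.10, 0.678 and 0 RPKM in input replicates 1 to 3. Input replicate 3 was thus at 0 like the myoblasts, and the groups overlapped. Of the 11192 genes above 0 in any library, 11.1% were at 0 in all 3 myoblast libraries. From the other inputs, 134 reads would have been found in that library, where 22.7% of genes with 100 to 200 reads predicted from the other inputs were listed at 0. The highest upd3 value stood in input replicate 1, and the summed level of the hemocyte markers Hml, Pxn, NimC1, eater, srp, He and Sr-CI was also highest there. That sum was 52.2, 10.8 and 12.8 RPKM in input replicates 1 to 3 and 2.85, 2.41 and 4.50 RPKM in myoblast replicates 1 to 3. In input replicate 1 it was carried by He (38.8 RPKM) and eater (8.63 RPKM), whereas Pxn was lowest of the inputs there (1.22 RPKM) and Sr-CI was at 0. The 4 fat body markers Lsp2, Fbp1, Fbp2 and apolpp, none of which passed the filter, also had their highest sum there, at 13.7, 0 and 1.48 RPKM in input replicates 1 to 3 and at 0.689 RPKM or less in myoblasts. Of the 7 hemocyte markers, 3 passed the filter and 2 (eater and He) were called lower in myoblasts. Both passed the filter only through the input, so their calls are given as a description. Sr-CI was at 0 in all 3 myoblast libraries. The part of hemocytes and fat body in the upd3 values was not tested. Of the 10 genes of a wound and stress list, 7 were tested and 1 (Gadd45) was called lower in myoblasts. That is 14.3%, near the 14.8% of all tested genes called lower.

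Over the 3 ligand genes, the summed level was 0, 0.156 and 0.273 RPKM in myoblasts against 2.79, 2.85 and 1.67 RPKM in the input. Every input library was above every myoblast library. The exact permutation test, two-sided over 20 arrangements, gave p = 0.1 for upd1 and for upd2, the smallest p that 3 against 3 libraries allow, and p = 0.4 for upd3. None of the ligand genes reached 1 RPKM in the 3 libraries that the filter for the test across genes required. With no filter on low values, limma with Benjamini-Hochberg adjustment over 11192 genes called upd1 lower in myoblasts, with a log2 fold change of -1.12 (SE 0.219, adjusted p = 0.0199). Under that setting 9.97% of all genes were called lower. The fold change was set by the pseudocount of 1 RPKM, since the myoblast libraries were at 0, and it is no measure of size. The same fit gave upd2 a log2 fold change of -0.50 (adjusted p = 0.182) and upd3 one of -0.61 (adjusted p = 0.235), neither of which passed.

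The ligand genes lie together on the X chromosome of the dm6 build. upd2 (FBgn0030904) spans X:18240654-18243284 on the minus strand, upd3 (FBgn0053542) X:18277233-18284596 on the plus strand and upd1 (FBgn0004956) X:18305354-18309291 on the minus strand. The gaps between them are 33948 and 20757 bases, within a stretch of 68638 bases. None of the 3 shares an exon base with another annotated gene.

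**Figure D1:**
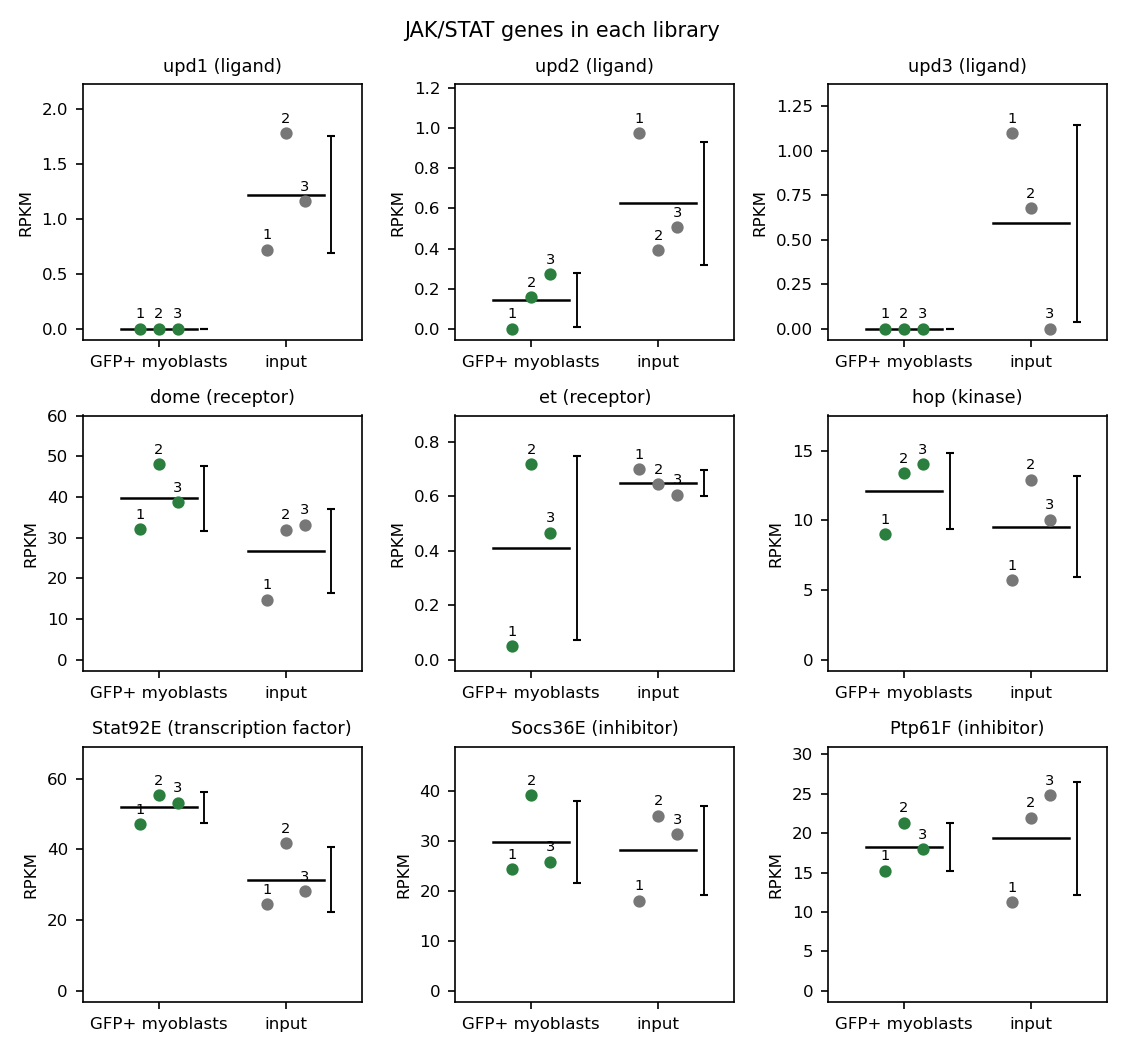
RPKM of each of the 9 JAK/STAT genes in the 3 GFP+ myoblast libraries and the 3 input libraries, each panel with its own linear axis. Points are libraries with their replicate number, horizontal lines are means and the bars beside them are the SD (n = 3). upd1 was at 0 in all myoblast libraries, and Stat92E was at 47.1 RPKM or more in myoblasts and at 41.8 RPKM or less in the input.

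dome, which codes for the signalling receptor of the pathway, was at 32.2, 48.0 and 38.8 RPKM in myoblasts and at 14.7, 31.9 and 33.2 RPKM in the input. Input replicate 1 was far below the other libraries, and input replicate 3 was above the lowest myoblast library, so the groups overlapped. The means were 39.7 ± 7.98 and 26.6 ± 10.3 RPKM (SD, n = 3). On the log2(RPKM + 1) scale dome was 0.62 higher in myoblasts (1.54-fold, SE 0.328, 95% interval -0.13 to 1.38), which did not pass the test (limma, adjusted p = 0.249 over 7533 genes). The exact permutation p was 0.2. Without input replicate 1 the difference was 0.26 (limma, adjusted p = 0.317).

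et codes for a receptor that lacks the signalling part and is known to oppose dome. It was at 0.0493, 0.718 and 0.468 RPKM in myoblasts and at 0.700, 0.645 and 0.606 RPKM in the input. The inputs lay close together, while the myoblast libraries ran from far below them to slightly above, on 10, 146 and 73 reads. The difference did not pass a test (exact permutation p = 0.4). et lies 169 bases from dome on the same strand, with et (FBgn0031055) at X:19672312-19675891 and dome (FBgn0043903) at X:19676061-19683518, and the level of dome was higher than that of et in every library. The strand used in counting is not given in the sources used here, and et shares 42 exon bases with Zw, which lies on the opposite strand. At the highest Zw level of 8.42 RPKM, reads from those bases could add at most 0.147 RPKM to et.

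hop codes for the only Janus kinase of the fly. It was at 8.99, 13.4 and 14.0 RPKM in myoblasts and at 5.70, 12.9 and 10.04 RPKM in the input (12.1 ± 2.74 against 9.55 ± 3.63 RPKM). Replicate 1 was lowest in both groups and the groups overlapped. The log2 difference of 0.36 (SE 0.328, 95% interval -0.40 to 1.11) did not pass the test (limma, adjusted p = 0.533), and it was 0.06 without input replicate 1. hop (FBgn0004864) lies at X:11360930-11368098 on the minus strand.

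Stat92E, the only STAT transcription factor of the fly, had the highest mean level of the 9 genes in both groups. In input replicate 3, however, dome (33.2 RPKM) and Socs36E (31.4 RPKM) were above it. It was at 47.1, 55.3 and 53.3 RPKM in myoblasts and at 24.5, 41.8 and 28.1 RPKM in the input. All myoblast libraries were above all inputs, with input replicate 2 nearest to them. The means were 51.9 ± 4.29 and 31.5 ± 9.14 RPKM, a log2 difference of 0.74 (1.67-fold, SE 0.232, 95% interval 0.20 to 1.27). The adjusted p of 0.0606 (limma, Benjamini-Hochberg over 7533 genes) was just past the threshold of 0.05, and Stat92E was not called. The exact permutation test gave p = 0.1, the smallest it can give. Without input replicate 2 the difference was 0.95 and passed (limma, adjusted p = 0.0138) beside 5.80% of all genes called higher there, while without input replicate 1 the p also passed (0.0475) at a difference of 0.58, marginally short of 1.5-fold. Over the fits that left out a single library it was between 0.58 and 0.95, with adjusted p between 0.0138 and 0.220. A fit with replicate number as a block, which pairs same-numbered libraries, called Stat92E higher (limma, adjusted p = 0.0360). In that fit 491 of all 7533 genes were called higher. The labels do not state such a pairing. Stat92E (FBgn0016917) lies at 3R:20535323-20552311 on the minus strand and shares no exon base with another gene.

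Neither inhibitor gene was called. Socs36E, the feedback inhibitor, was at 24.4, 39.2 and 25.9 RPKM in myoblasts and at 18.0, 35.1 and 31.4 RPKM in the input. The ranges lay across each other, and the log2 difference was 0.10 (SE 0.302, 95% interval -0.59 to 0.80, limma adjusted p = 0.867). Ptp61F, the tyrosine phosphatase gene, was at 15.3, 21.3 and 18.0 RPKM in myoblasts and at 11.3, 22.0 and 24.8 RPKM in the input. Its inputs spread to either side of the myoblast libraries, and the log2 difference was -0.03 (SE 0.312, 95% interval -0.75 to 0.69, limma adjusted p = 0.968). These intervals hold changes of more than 1.5-fold in either direction, so the tests do not show equal levels. The direction of either gene turned when single libraries were left out. Socs36E (FBgn0041184) lies at 2L:18138675-18152417 and Ptp61F (FBgn0267487) at 3L:1342493-1475257, both on the minus strand.

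Of the 9 genes, 5 passed the filter of 1 RPKM in at least 3 of the 6 libraries, namely dome, hop, Stat92E, Socs36E and Ptp61F, and 0 of these were called, a call being a change over 1.5-fold with an adjusted p (limma, Benjamini-Hochberg) under 0.05. The count of 0 holds for the fit without pairing, whereas the replicate block called Stat92E. Of all 7533 genes tested, 20.4% were called without pairing, 5.52% as higher and 14.8% as lower in myoblasts. At an unadjusted p under 0.05, 1 of the 5 genes passed (Stat92E) beside 30.7% of all genes, and limma-voom on the recovered reads called 0 of the 5 beside 10.1% of all genes. The log2 difference was above 0 for 4 of them and below 0 for 1, with a median of 0.36 against 0.01 over all genes. Without input replicate 1, which was low for most long genes, the median was 0.0607 against 0.0013 over all genes. Only for Stat92E among the 5 did the groups not overlap, a pattern seen with myoblasts higher in 16.4% of all genes.

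**Figure D2:**
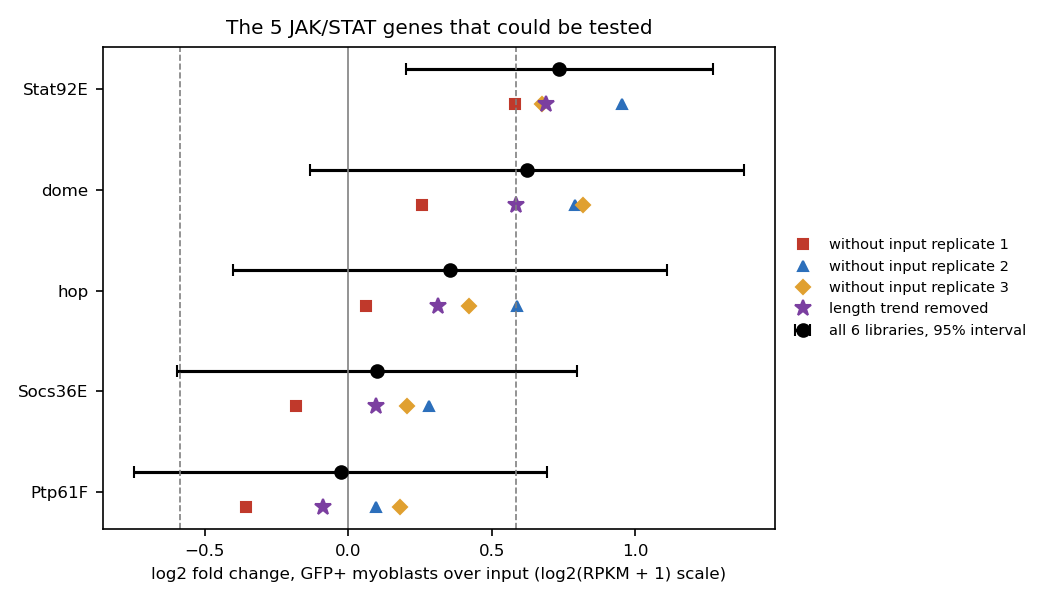
Log2 fold change of GFP+ myoblasts over input for the 5 tested JAK/STAT genes, with all 6 libraries and their 95% interval (black), without each input replicate and with the length trend of each library removed. Dashed lines mark a 1.5-fold change. Stat92E stayed at or above 0.58, whereas dome moved from 0.62 to 0.26 without input replicate 1.

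Within the sorted myoblasts the order of mean RPKM was Stat92E, dome, Socs36E, Ptp61F, hop, et and upd2, with upd1 and upd3 at 0. The ranges of Stat92E and dome overlapped, as did those of dome and Socs36E, of et and upd2, and of upd2 and upd1. Socs36E was above Ptp61F, Ptp61F above hop and hop above et in every myoblast library and without overlap. RPKM is a level per exon length, which permits a rough comparison between genes. Levels in some libraries still followed exon length, as described below. In the input the order was Stat92E, Socs36E, dome, Ptp61F, hop, upd1, et, upd2 and upd3, and there only hop and upd1, and upd1 and et, were neighbours without overlap. The intracellular genes and dome were thus found at 8.99 RPKM or more in every myoblast library, while no ligand gene exceeded 0.273 RPKM in any.

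The input mean was 60.7% of the myoblast mean for Stat92E, 67.1% for dome, 78.7% for hop, 94.4% for Socs36E and 106% for Ptp61F. For the myoblast markers the same share was between 16.1% (Mef2) and 18.3% (htl). None of the 5 pathway genes therefore showed the separation of a myoblast marker.

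Ratios within a library do not depend on the scaling between libraries, and 4 were computed. They can still carry the trend with exon length described below, since dome has 4875 bases of exon and et has 2411. The ratio of dome to et was 653, 66.9 and 83.0 in myoblasts and 21.0, 49.5 and 54.8 in the input, and the groups did not overlap. The log2 difference was 1.996, and it was between 0.95 and 2.60 when single libraries were left out, since the 10 et reads of myoblast replicate 1 weighed heavily in it. Socs36E to Stat92E, inhibitor to transcription factor, was 0.519, 0.709 and 0.486 in myoblasts and 0.736, 0.839 and 1.12 in the input, a log2 difference of -0.65. Ptp61F to Stat92E was 0.324, 0.386 and 0.338 in myoblasts and 0.460, 0.526 and 0.882 in the input, a difference of -0.78. In both of these ratios all myoblast libraries were below all inputs. Both have Stat92E as the denominator, so they are not independent of each other or of the Stat92E values given above. How often other pairs of genes separate in this way was not computed. The ratio of Stat92E to hop was 5.24, 4.14 and 3.797 in myoblasts and 4.30, 3.24 and 2.80 in the input, and these groups overlapped. The exact permutation p was 0.1 for each of the first 3 ratios and 0.3 for the last (0.133 and 0.3 after Benjamini-Hochberg adjustment over the 4), and 0.1 is the smallest the design can give.

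All 5 tested members were lowest in replicate 1 of both groups. This position was shared by 24.5% of all tested genes and by 58.9% of the 1936 tested genes with at least 3500 bases of exon, a limit chosen after the values of the members were seen. The members have from 3503 bases (Socs36E) to 6069 bases (Ptp61F) of exon, against a median of 2149 over the tested genes. In input replicate 1, the log2 difference from the mean of replicates 2 and 3 had a median of 1.02 for genes under 1000 bases and fell with length to -0.70 for genes of 3500 to 6000 bases and -0.91 beyond. The members were at -1.09 (dome), -0.89 (hop), -0.47 (Stat92E), -0.85 (Socs36E) and -0.99 (Ptp61F). In myoblast replicate 1 the same medians ran from 0.21 to -0.23. The members there lay between -0.56 (hop) and -0.20 (Stat92E). The cause of the length trend was not tested.

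With the length trend of each library removed, an alternative added after the data had been seen, Stat92E was called higher in myoblasts with a log2 difference of 0.69 (limma, adjusted p = 0.00936), as were 9.08% of all genes. dome had a difference of 0.58, again short of the 1.5-fold limit, at an adjusted p of 0.0493. hop (0.31), Socs36E (0.10) and Ptp61F (-0.09) were not called.

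**Figure D3:**
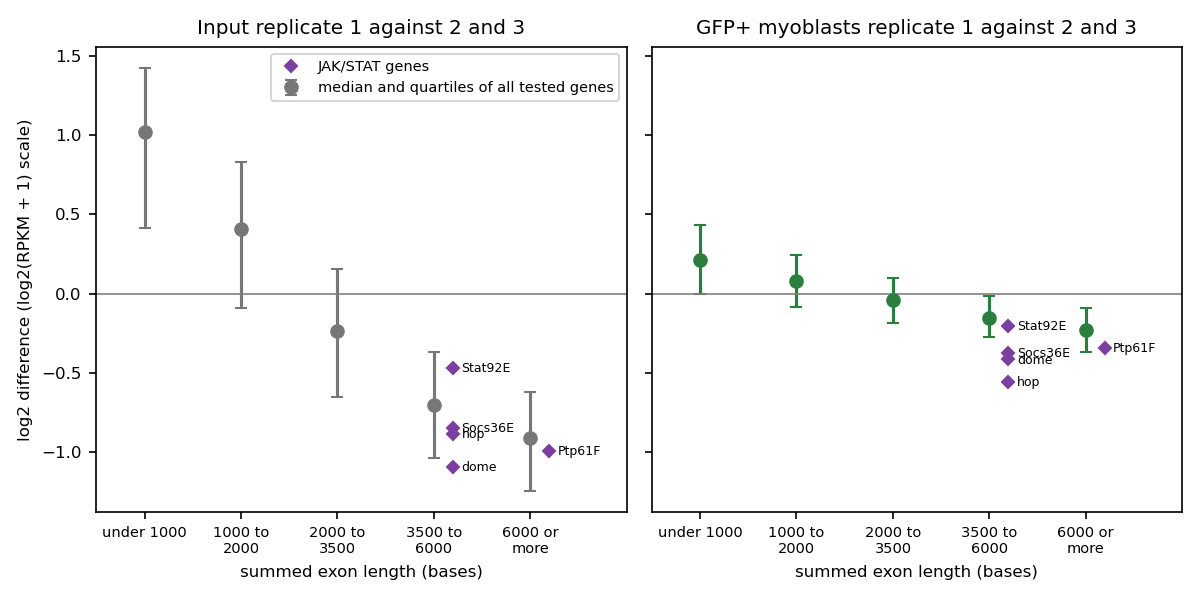
Log2 difference of replicate 1 from the mean of replicates 2 and 3, on the log2(RPKM + 1) scale, by summed exon length in bases, for the input (left) and the GFP+ myoblasts (right). Points with bars are medians and quartiles of all tested genes, and diamonds are the 5 JAK/STAT genes. In input replicate 1 the median went from 1.02 for the shortest genes to -0.91 for the longest, and the 5 genes lay between -1.09 and -0.47.

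Beyond the core, 21 further genes that are known to modulate the pathway or to work with its parts were examined. Of these, 20 were tested, 1 was called higher in myoblasts and none lower, which is 5.0% beside 20.4% of all genes, and their median log2 difference was 0.03. Diedel, a secreted antagonist, was at 0 in all libraries. Socs44A, a relative of Socs36E, was the gene called. It was at 13.3, 11.7 and 10.4 RPKM in myoblasts and at 5.09, 6.30 and 7.48 RPKM in the input, and every myoblast library was above every input. The log2 difference was 0.82 (SE 0.243, limma adjusted p = 0.0483). This p was next to the threshold, and the call was lost in 11 of 16 alternatives, with a difference between 0.70 and 1.04 throughout and adjusted p between 0.0167 and 0.282. The alternatives include median-of-ratios scaling, which could only repeat the main fit.

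Cdk4, whose kinase forms a complex with Cyclin D that acts with Stat92E, was at 27.6, 29.7 and 29.6 RPKM in myoblasts and at 13.2, 20.5 and 22.1 RPKM in the input. The groups did not overlap, and the log2 difference of 0.64 was not called (limma, adjusted p = 0.1001). mask (0.65, limma adjusted p = 0.211) and ken (0.57, adjusted p = 0.249) were likewise higher in all myoblast libraries without being called. That position, with myoblasts higher and no overlap, was found for 16.4% of all tested genes. ken codes for a repressor that acts on a subset of STAT targets. The other SOCS gene on the list, Socs16D, was at 6.66, 8.96 and 7.202 RPKM in myoblasts and at 4.77, 14.4 and 9.61 RPKM in the input, with overlap of the groups.

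Genes reported as STAT targets in other fly tissues gave a mixed picture. Of 15 listed, 7 passed the filter, and of those 1 was called higher and 5 were called lower in myoblasts. Of the 5, vvl, eya, chinmo and Tep2 reached 1 RPKM in 3 libraries only through the input, so their calls are given as a description. For the same reason the number called is not read against the 20.4% of all genes. Only vir-1 of the 5 was above 1 RPKM in every library. zfh1, a zinc finger and homeodomain factor gene that is also a myoblast marker, was at 59.3, 82.8 and 72.2 RPKM in myoblasts and at 7.64, 13.7 and 13.9 RPKM in the input. It was higher by 2.53 on the log2 scale (SE 0.268, limma adjusted p = 0.000348), and it stands in the list of markers as well. It was the target with the highest level in the sorted cells.

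vvl, a POU domain factor gene, was at 0.519, 0.139 and 0.549 RPKM in myoblasts and at 16.3, 24.9 and 18.5 RPKM in the input (log2 difference -3.89, limma adjusted p = 5.91e-05). eya, a transcriptional coactivator gene, had a mean of 0.560 ± 0.279 RPKM in myoblasts and 8.34 ± 1.11 RPKM in the input (-2.59, limma adjusted p = 0.000414). chinmo, a zinc finger factor gene, was at 0.966, 1.013 and 0.490 RPKM in myoblasts and at 2.004, 6.03 and 7.30 RPKM in the input (-1.63, limma adjusted p = 0.0288). These 3 transcriptional regulators were each below 1.1 RPKM in the sorted cells and without overlap between the groups. The call of chinmo was lost in 9 of 15 alternatives, with adjusted p between 0.000422 and 0.219. Median-of-ratios scaling, counted among them, could only repeat the main fit.

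Of the listed targets with a role in immunity, vir-1 and Tep2 were called lower and the others were not tested. vir-1, a gene induced by virus infection, was at 2.85, 3.35 and 4.04 RPKM in myoblasts and at 39.4, 22.2 and 31.0 RPKM in the input (log2 difference -2.83, limma adjusted p = 0.000221). Tep2, a gene for a complement-like protein, was at 0.328, 0.319 and 0.196 RPKM in myoblasts and at 6.42, 6.32 and 4.95 RPKM in the input (-2.42, limma adjusted p = 0.000504). In neither gene did the groups overlap. Tep1, its relative, was not tested and was at 4.603, 0.549 and 1.40 RPKM in input replicates 1 to 3, highest in the library in which the hemocyte and fat body sums given above were highest. The vir-1 values in the input were also highest in replicate 1, and those of Tep2 were about equal in replicates 1 and 2. Input replicate 1 was also raised for short genes in general. Its median log2 difference from replicates 2 and 3 was 1.02 under 1000 bases of exon and 0.409 from 1000 to 2000 bases. The part of hemocytes, fat body or the length trend in the Tep1, vir-1 and Tep2 values was not tested.

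fj, a Golgi kinase gene, was at 16.7, 15.5 and 14.8 RPKM in myoblasts and at 20.9, 37.5 and 26.2 RPKM in the input. Every input library was above every myoblast library, as for 21.5% of all tested genes, but the log2 difference of -0.77 was not called (limma, adjusted p = 0.0641). slbo and Listericin were at 0 in all libraries, eve was at 0 in all myoblast libraries, TotC and TotM were each above 0 in a single myoblast library, and TotA was above 0 in myoblast replicate 2 and input replicate 3. mirr, not tested, was at 0.0397, 0.384 and 0.202 RPKM in myoblasts and at 0.731, 8.72 and 5.42 RPKM in the input.

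**Figure D4:**
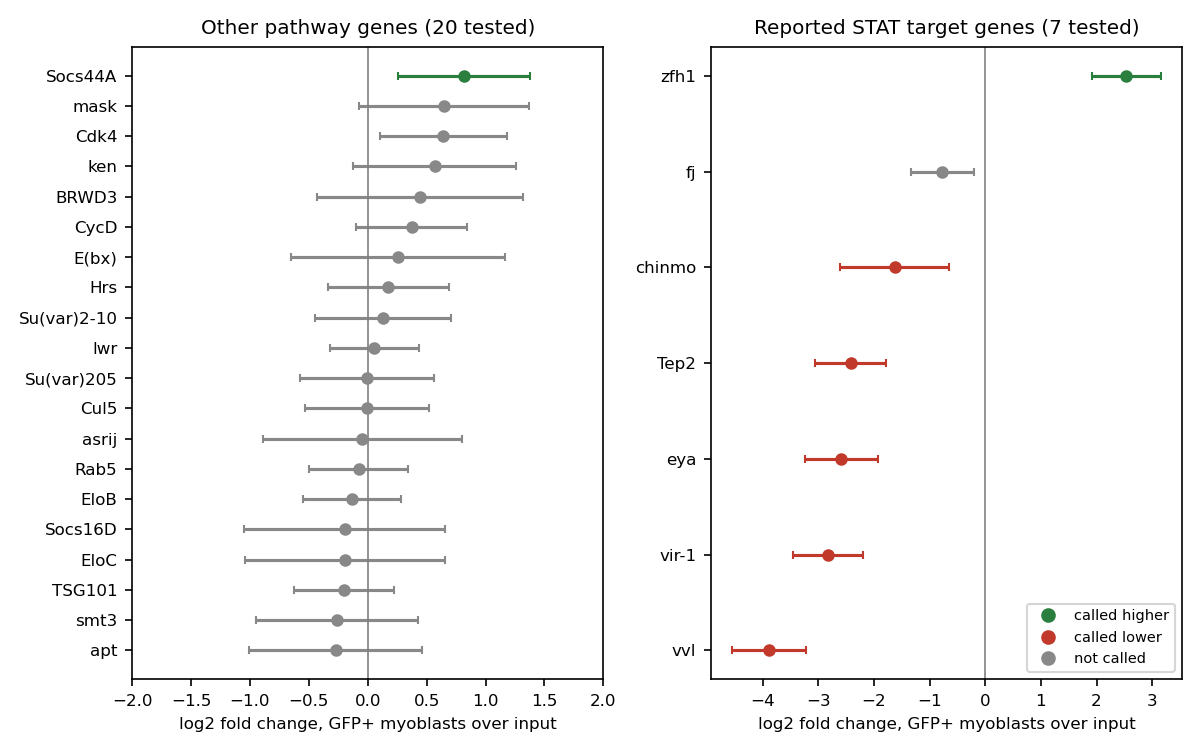
Log2 fold change of GFP+ myoblasts over input, on the log2(RPKM + 1) scale with 95% intervals, for the 20 tested genes that modulate the pathway or work with it (left) and the 7 tested genes reported as STAT targets elsewhere (right). Green marks genes called higher, red genes called lower and grey genes not called. Socs44A (0.82) and zfh1 (2.53) were called higher, and vvl (-3.89), vir-1, eya, Tep2 and chinmo were called lower. The calls of vvl, eya, Tep2 and chinmo are a description, since these genes passed the filter only through the input.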

How the data were processed

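Messenger RNA was sequenced from 3 libraries of GFP+ myoblasts and 3 of input. Per the submitters' processing notes and the methods, the authors trimmed reads with cutadapt, aligned them to dm6 with HISAT2 2.1.0, counted them with HTSeq 0.11.2, computed RPKM with Cufflinks and tested genes with DESeq2 1.22.2. The deposited values are RPKM. The counts given to DESeq2 were not used here, so a test for normalized values was chosen. The deposited RPKM already carried a median-of-ratios scaling, which a further scaling of that kind left unchanged. Whole reads were recovered from RPKM and Ensembl release 115 exon lengths (17216 genes matched by identifier) at a tolerance of 0.05 reads, which held for 97.3% to 98.6% of the genes below 100 reads. Their number sets the precision of low values.

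Genes at 1 RPKM or more in at least 3 of 6 libraries were tested on log2(RPKM + 1) with limma 3.58.1 (R 4.3.3, empirical Bayes with trend) and Benjamini-Hochberg adjustment over all 7533. Calls required a change over 1.5-fold and an adjusted p under 0.05. Fold changes on this scale understate those of low genes. Single genes and ratios were also compared with two-sided exact permutation tests over 20 arrangements. Other steps ran in Python 3.11.15 with pandas 2.3.3, numpy 2.4.6, matplotlib 3.10.9 and scipy 1.17.1. The fit was tested on simulated data. Named genes were all 9 members, every called gene of the lists of other pathway genes and STAT targets, and neighbours on the chromosome, to which uncalled and untested genes of the lists were added after their values were seen. The members and lists were chosen with earlier results of these data known. Alternatives were another pseudocount, other filters, other scalings, a replicate block, no trend, limma-voom on recovered reads, leaving out each library, and removal of a length trend.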

Additional observations from a re-analysis of the deposited data

How the results depend on the processing

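Of the 5 tested members, none was called with all libraries, and of the 9 members 1 was called with no filter (upd1), with the replicate block (Stat92E, log2 difference 0.736, adjusted p = 0.0360), with the length trend removed (Stat92E, 0.69) and 0 to 1 in the fits that left out single libraries. The labels do not say whether replicate numbers pair the libraries. Same-numbered libraries deviated from their group means with correlations of 0.345, 0.262 and 0.007. For differently numbered libraries the correlations ran from -0.326 to 0.156. The block raised the count of all genes called from 1534 to 1668. For Stat92E, adjusted p was between 0.00936 and 0.294 over all alternatives. Leaving out single libraries gave log2 differences of 0.58 to 0.95 for Stat92E, 0.26 to 0.82 for dome, 0.06 to 0.59 for hop, -0.18 to 0.28 for Socs36E and -0.36 to 0.18 for Ptp61F, and voom on recovered reads gave Ptp61F 0.0019. All genes called numbered 920 above a mean RPKM of 5, 746 with voom and 903 to 2342 without single libraries (903 to 951 without a myoblast library, 2342 without input replicate 1). The share called higher was 27.1%, 16.3% with libraries rescaled to the same sum and 50.4% with quantile normalization, which moved the median of all genes to 0.16. Other pathway genes called were 0 with a pseudocount of 0.1, no filter, a mean RPKM over 5, the same sum, the replicate block or voom, 2 with quantile normalization or the length trend removed, and 0 to 1 without single libraries. STAT targets called were 3 above a mean RPKM of 5 and 5 to 7 without single libraries. The cause of these changes was not tested, apart from the fewer genes that a mean RPKM over 5 leaves. Median-of-ratios scaling changed nothing. The number of libraries limits what the test can call: the 95% interval of Ptp61F reached from -0.75 to 0.69.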

Other observations

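The genes named here were chosen after their values were seen. Inside the span of Ptp61F, on the opposite strand and with no exon base shared, lie rho, which codes for a protease that releases EGF receptor ligands, and ru, its relative. rho was at 0.0911, 0.0791 and 0.139 RPKM in GFP+ myoblasts and at 5.73, 7.09 and 4.27 RPKM in the input (log2 difference -2.58, limma adjusted p = 0.000532). ru was at 0.0462, 0 and 0 RPKM in myoblasts and at 2.33, 5.11 and 10.7 RPKM in the input (-2.61, limma adjusted p = 0.00482). The call of ru was lost with voom on recovered reads (adjusted p = 0.138). Both genes passed the filter of 1 RPKM in 3 libraries only through the input, so their calls are given as a description. Ptp61F around them had a log2 difference of -0.03. Beside upd1, at a gap of 4832 bases, CG6023 was likewise at 0 in all 3 myoblast libraries and at 1.69, 0.730 and 1.16 RPKM in the input.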
